A study of Oryzias latipes with 6 samples.

Results

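Splicing factor and LSM genes were followed in axial tissue of Japanese medaka (Oryzias latipes) larvae that had met the dioxin TCDD as embryos. The members are the genes whose symbol, without its copy suffix, begins with SF3A, SF3B, SNRP, SNRNP, SRSF, HNRNP, PRPF, U2AF or SRRM. Genes whose symbol begins with LSM, RBM, DDX or DHX followed directly by a digit are members too. The members number 172 of the 20459 genes in the authors' deposited table. Symbols alone chose them, so the RBM proteins and the DDX and DHX helicases include genes that work partly or wholly outside splicing. All fish were of the strain Orange-red Hd-dR. Starting about 4 hours post fertilization, the embryos spent 1 h either in 0.3 nM TCDD, which activates the aryl hydrocarbon receptor, or in 0.1% DMSO, the solvent control. RNA was taken at 20 days post fertilization from vertebrae with the muscle, fat and dermis around them, as pools of 15 to 25 fish, and each group had 3 libraries. The authors' deposited table gives 1 value per gene and group, so no SD, no n of measured values and no depth per library can be given. The values were read as FPKM (fragments scaled to transcript length and sequencing depth) from the table's layout, since its headers name no unit. Significance is the authors' own q-value, adjusted over all the genes they tested, and genes at q 0.05 or below are called. No source used here says how their test treated the 3 libraries, and nothing in the labels says that the pools came from separate clutches, so the q-values may measure technical spread.

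Splicing removes introns from pre-mRNA on the spliceosome, which is built from small nuclear ribonucleoproteins (snRNPs). Each snRNP holds a small RNA with a ring of Sm proteins, or for U6 a ring of the related LSM proteins, and its own further subunits. SR proteins bind exons and mostly help splice sites to be chosen, hnRNP proteins coat the transcript and often act against them, and RNA helicases drive the spliceosome from step to step. Another LSM ring works in the cytoplasm, where it promotes removal of the mRNA cap and decay. Skeletal muscle, a large part of axial tissue, is known for tissue-specific splicing of its contractile genes. The values here are levels of the factors' own transcripts; splicing itself was not analysed here.

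Of 30 marker genes looked for in the tissue, 21 symbols were found. Muscle, bone and skin markers were abundant, ckma (muscle creatine kinase) standing in the authors' deposited table at 14434 FPKM with DMSO and 15386 with TCDD. The fat markers fabp4, plin1 and adipoq were not matched, and LPL (lipoprotein lipase) has 369 and 539 FPKM in the authors' deposited table. Over all these lists 15 genes were tested, and 7 were called lower and 2 higher in the same comparison. Of all 3286 tested genes, 7.46% were called lower and 10.7% higher. According to the authors' deposited table, the fast muscle gene mylpfa fell from 12477 to 3299 FPKM and the bone gene col10a1 fell from 1363 to 185 FPKM, while the leukocyte gene ptprc rose from 7.85 to 29.9 FPKM (q = 0.00105 for each). The second tested leukocyte gene, mpx (2 of 2), was level at 32.7 and 32.2 FPKM (q = 0.968), and the called skin genes went opposite ways, krt5 from 8037 to 3926 FPKM (q = 0.034) and cldne from 55.2 to 371 FPKM (q = 0.00105), per the authors' deposited table. Summed per list, the authors' deposited table gives muscle markers 120025 FPKM with DMSO and 75627 with TCDD, bone markers 3840 and 876 FPKM, skin markers 8550 and 4990 FPKM, and blood and leukocyte markers 45.3 and 126 FPKM. Not every list member shares the direction of its sum. In muscle, pvalb4 fell from 48170 to 10465 FPKM (q = 0.00105), while ckma (q = 0.876) and ckmb, at 44944 and 46478 FPKM (q = 0.927), were level. The leukocyte sum includes the untested SPI1, at 0 and 43.1 FPKM on a locus of 288 bp. The nerve markers sum to 53.6 and 49.995 FPKM and the eye markers, none tested, to 51.6 and 3.66 FPKM, per the authors' deposited table. The nerve sum joins elavl3, with 27.0 and 45.8 FPKM (q = 0.155), and the untested plp1b, with 26.5 and 4.17 FPKM. The part of such shifts in the values of the splicing genes was not tested, and in these bulk samples fewer cells of a type and less RNA per cell cannot be told apart.

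Few of the tested splicing genes were called between TCDD and DMSO, and a gene without a call may still differ. Of the 172 members the authors tested 72, and their deposited table calls 3: lsm7 and rbm22 rose and srsf4 fell with TCDD. That is 4.17% of the tested members, beside 18.2% of all 3286 tested genes (10.7% called higher and 7.46% called lower). At an unadjusted p under 0.05 the authors' deposited table holds 8 tested members, 4 higher and 4 lower, or 11.1% beside 32.6% of all tested genes. The group values of the members also lay close together. Of the 71 tested members above 0 in both groups, 58 (81.7%) differed by less than 1.5-fold, beside 52.8% of all tested genes. A difference of 2-fold or more was found for 3 of the 71 (4.23%), namely snrpd3, rbm22 and rbm24a, beside 24.3% of all tested genes. Both counts used the values as deposited and were not repeated at equal group totals, the scaling described below. The median level of the tested members was 57.7 FPKM (mean of both groups for each gene), beside 52.6 FPKM for all tested genes. The lowest tested member lay at 28.0 FPKM and the lowest of all tested genes at 13.7 FPKM. The part of level in these shares was not tested. These counts describe the list; no test of the list against other genes was run.

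**Figure D1:**
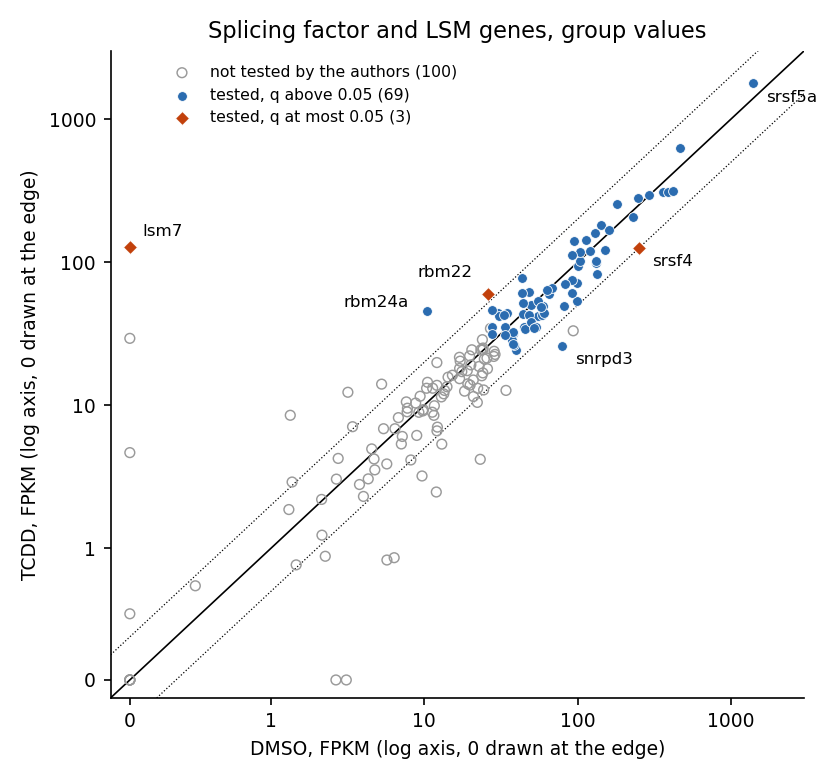
FPKM of each of the 172 members in DMSO (x axis) and TCDD (y axis), both on log axes with values of 0 drawn at the edge; the solid line is equality and the dotted lines mark 2-fold. Most points lie between the dotted lines, and the 3 called genes are lsm7 (at 0 in DMSO), rbm22 (above the line) and srsf4 (at the lower dotted line).

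The median log2 difference (TCDD over DMSO) of the tested members was -0.11, beside 0.05 for all tested genes. Values in the authors' deposited table sum to 1315189 FPKM for DMSO and 1108805 for TCDD, and giving both groups the same total adds 0.25 to each log2 difference. The medians then become 0.14 and 0.29. As deposited, 43 of the 71 tested members had the lower value in TCDD (60.6%, beside 47.5% of all tested genes), and at equal totals 29 did (40.8%, beside 35.8%). The sign of 14 tested members therefore turns with the scaling, none of them a called gene. No called gene could turn: the smallest absolute log2 difference among called genes above 0 in both groups, 0.795, exceeds 0.25. Summed over all members, the values came to 9572 FPKM in DMSO and 9625 FPKM in TCDD, or 0.728% and 0.868% of the group totals. The sums were close, so the larger share in TCDD goes with the smaller TCDD total. Of these sums srsf5a, the member with the highest level, alone gave 1393 and 1779 FPKM.

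**Figure D2:**
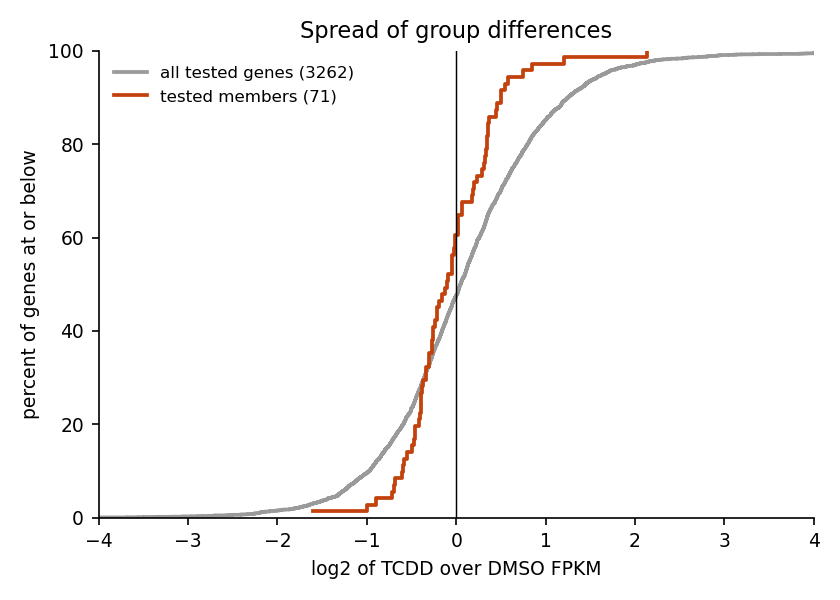
Percent of genes (y axis) at or below each log2 of TCDD over DMSO FPKM (x axis), for the 71 tested members and the 3262 tested genes that are above 0 in both groups. The line of the members is steeper, with 81.7% of members and 52.8% of all tested genes within 1.5-fold.

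The LSM genes held the member with the smallest q. That q comes from the smallest p the authors' test gave, 5e-05, which 157 genes of the table share. The gene lsm7, whose protein is a subunit of both LSM rings, rose: the authors' deposited table lists 0 for DMSO and 128 FPKM for TCDD (q = 0.00105). Its locus, chromosome 4 from 8878212 to 8880241, overlaps no other gene of the table, on a build that no source used here names. No fold is given against a value of 0, and the authors' deposited table lists 24 tested genes in all at 0 in 1 group, 10 of them called. Since cells generally use lsm7, the 0 may not mean absence, and whether the estimate failed there was not tested.

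The other subunits of the LSM rings had no call. For lsm8, which sets the nuclear ring apart, the authors' deposited table gives 59.3 FPKM with DMSO and 49.3 with TCDD (q = 0.699). The cytoplasmic subunit gene lsm1, not tested, has 1.34 and 8.50 FPKM there, and lsm4, shared by both rings and also untested, has 3.17 and 12.3 FPKM in the authors' deposited table. Another shared subunit, lsm6, stands untested at 17.0 and 18.1 FPKM in the authors' deposited table. So lsm1 and lsm4, low and untested, and lsm7, listed at 0 in DMSO, had the higher value in TCDD, lsm6 was almost level, and lsm8 was lower as deposited and almost level at equal totals. No gene with the symbol lsm2, lsm3 or lsm5 was found by the symbol rule.

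LSM genes outside the rings gave a mixed picture. LSM12 is present as a pair of copies, and the authors' deposited table has 121 and 119 FPKM (q = 0.972) for 1 of 2 and 33.2 and 42.4 FPKM (q = 0.572) for 2 of 2, which shares its locus with g6pc3. The U7 snRNP, which processes histone mRNA, uses lsm10 and lsm11, both untested; the authors' deposited table gives lsm10 9.38 and 11.5 FPKM, and lsm11 6.35 and 0.858 FPKM. The LSM14 genes are linked to mRNA storage and P-bodies, and lsm14ab, untested, stands at 23.9 and 28.7 FPKM in the authors' deposited table. All 3 lsm14b copies were low, at 2.15 to 3.10 FPKM in DMSO and at 0, 0 and 1.23 FPKM in TCDD, per the authors' deposited table. In all, 4 of 13 LSM genes were tested and 1 was called, as higher, beside 10.7% called higher among all tested genes; with 4 genes, and the call resting on a listed 0, the count cannot be set apart from that share.

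None of the 4 tested Sm ring genes was called, beside 18.2% of all tested genes, though the values of snrpd3 and snrpd2 stood well apart. The authors' deposited table gives snrpd3 79.3 FPKM with DMSO and 26.1 with TCDD (log2 -1.61, q = 0.327). It gives snrpd2 99.4 and 53.5 FPKM (log2 -0.89, q = 0.113, per the authors' deposited table). The snrpd3 difference was thus larger than that of srsf4 but far from the threshold, and the spread between libraries behind it cannot be read from the table. In the same ring, snrpb has 131 and 101 FPKM (q = 0.433) and snrpd1 64.9 and 59.6 FPKM (q = 0.85), per the authors' deposited table. All 4 tested Sm genes had the lower value in TCDD as deposited, and 3 of 4 at equal totals, where snrpd1 turns. Per the authors' deposited table, the untested snrpe has 17.5 and 17.1 FPKM and the untested snrpf 10.3 and 13.1 FPKM.

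**Figure D3:**
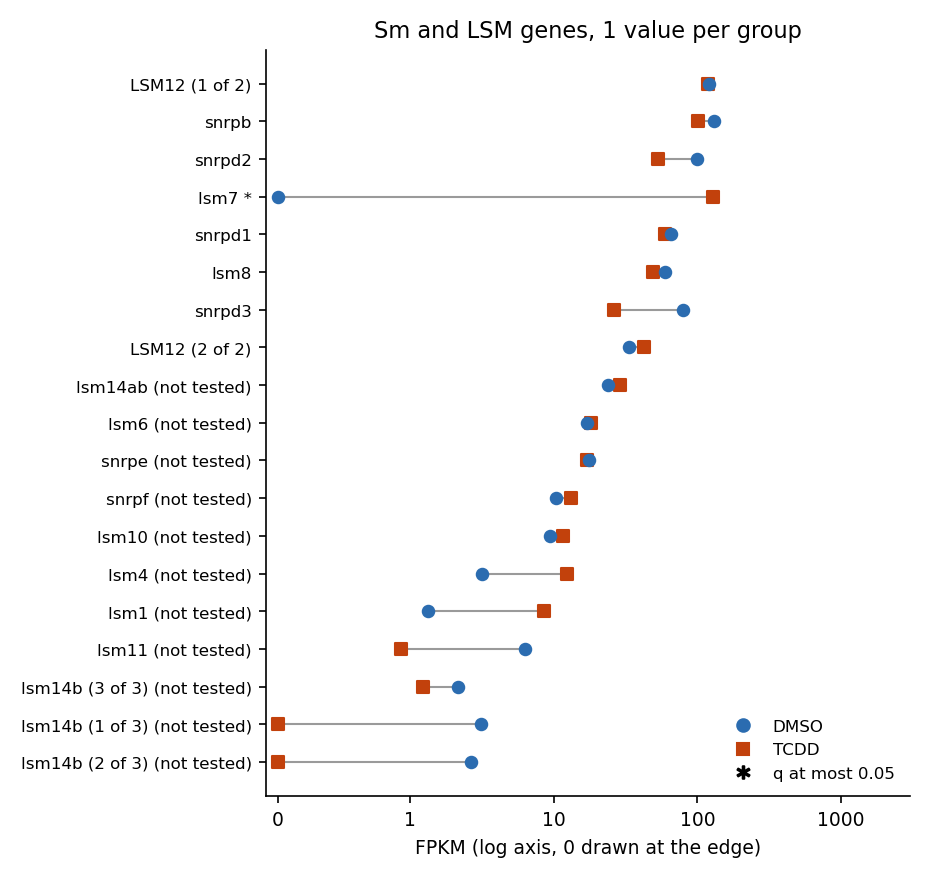
FPKM in DMSO (circles) and TCDD (squares) for the 6 Sm and 13 LSM genes, on a log axis with values of 0 drawn at the edge; a star marks q at most 0.05. The gap is widest for lsm7, at 0 and 128 FPKM, whereas lsm8, lsm6 and both LSM12 copies have values close together.

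The U1 snRNP, which recognises the splice site at the start of an intron, had 3 tested genes and no call, beside 18.2% of all tested genes. Its 70K protein gene, snrnp70, stands in the authors' deposited table at 81.8 FPKM with DMSO and 49.6 with TCDD (log2 -0.72, q = 0.126). For snrpc, another U1-specific protein, the authors' deposited table gives 150 and 121 FPKM (q = 0.631). The gene prpf39, whose yeast counterpart belongs to U1, has 53.2 and 35.04 FPKM (q = 0.255), per the authors' deposited table. All 3 had the lower value in TCDD under either scaling. The untested U1 gene snrpa has 22.1 and 10.5 FPKM, per the authors' deposited table.

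Genes of the U2 snRNP and U2AF, which recognise the branch site and the end of the intron, lay on both sides of equality. Among 8 tested genes, 0 were called, beside 18.2% of all tested genes. In TCDD 4 had the higher and 4 the lower value as deposited (6 and 2 at equal totals), and the median log2 difference was -0.02. The branch-site protein gene sf3b1 stands as a pair of neighbouring loci on scaffold2106, so its reads may be split. The authors' deposited table gives copy 1 of 2 94.2 and 141 FPKM (q = 0.261) and copy 2 of 2 160 and 167 FPKM (q = 0.894). Further SF3 subunits differed by less than 1.5-fold as deposited as well. They were sf3b14 with 91.3 and 111 FPKM (q = 0.723), sf3a3 with 43.1 and 61.0 FPKM (q = 0.275), sf3a1 with 33.3 and 30.9 FPKM (q = 0.833) and sf3b4 with 57.7 and 48.3 FPKM (q = 0.625), all per the authors' deposited table. The U2-specific proteins are snrpa1, with 82.5 and 69.95 FPKM (q = 0.645), and snrpb2, with 52.1 and 34.7 FPKM (q = 0.4), per the authors' deposited table.

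No U2AF gene was tested. The large subunit gene u2af2b has 28.4 and 21.9 FPKM and the small subunit gene u2af1 5.70 and 0.827 FPKM, per the authors' deposited table. Also untested, sf3b5 has 93.5 and 33.1 FPKM in the authors' deposited table, on a locus of 261 bp (chromosome 15, 16526482 to 16526742) where few reads can give such a value.

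Both tested genes of the U4/U6 and U5 snRNPs were level. The gene prpf8, whose protein forms the heart of the catalytic centre, stands in the authors' deposited table at 67.9 FPKM with DMSO and 65.7 with TCDD (q = 0.922), at a locus shared with SNORA38. The tri-snRNP gene snrnp27 has 63.4 and 64.1 FPKM (q = 0.971), per the authors' deposited table. Of the untested genes, the authors' deposited table gives 12.1 and 13.8 FPKM to snrnp200, the helicase that unwinds U4 from U6, and 20.1 and 19.1 FPKM to prpf3, which binds U4/U6. Among the other PRPF genes, prpf18, a factor of the last catalytic step of splicing, has 27.5 and 46.4 FPKM (log2 0.75, q = 0.203), per the authors' deposited table. It did not pass, nor did prpf38b with 37.6 FPKM in DMSO against 32.4 in TCDD (q = 0.7, per the authors' deposited table), which was lower in TCDD as deposited and almost level, at a log2 difference of 0.03, at equal totals.

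The minor spliceosome, which removes a rare class of introns, had 3 members, all untested and all lower in TCDD under either scaling. Among all untested genes above 0 in both groups, 48.9% were lower as deposited and 37.0% at equal totals. Only genes found by the symbol rule were counted, and a count of 3 untested genes describes these genes alone. The authors' deposited table gives 11.96 and 2.47 FPKM for snrnp25, 12.2 and 7.02 FPKM for snrnp35 and 20.9 and 11.5 FPKM for snrnp48.

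**Figure D4:**
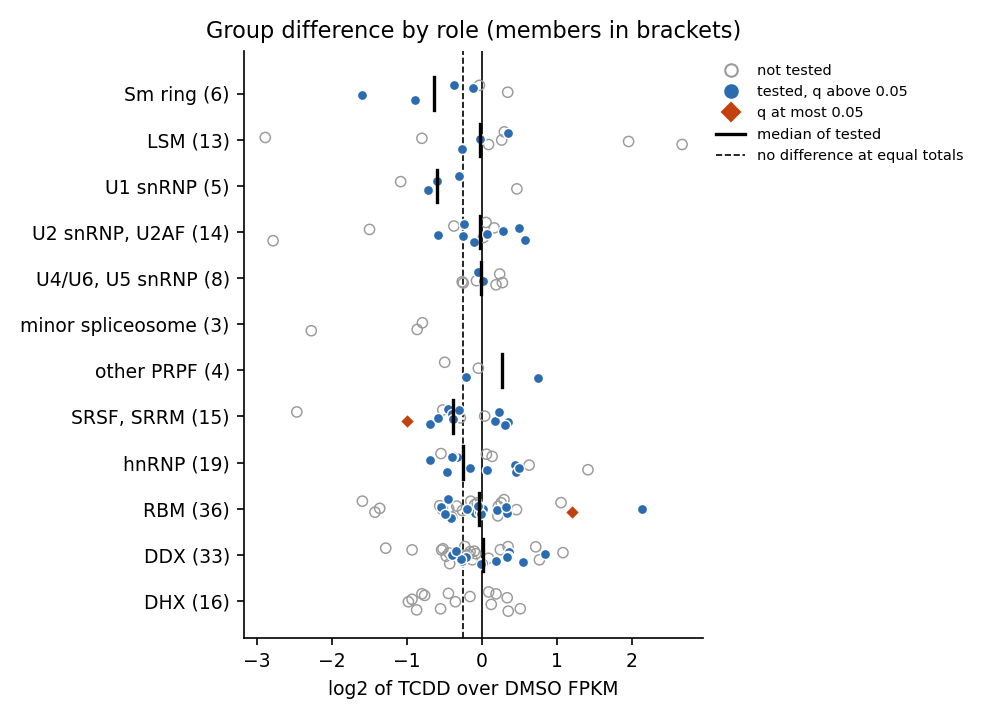
Log2 of TCDD over DMSO FPKM (x axis) for members above 0 in both groups, by role (y axis, members in brackets); filled points were tested by the authors, open ones were not, and thick bars are medians of the tested genes. Sm, U1 and SR medians lie left of 0 at -0.63, -0.60 and -0.38, and those of the U2, RBM and DDX groups within 0.05 of 0; the dashed line is where equal totals would put 0.

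Of the SR proteins, 1 fell. The gene srsf4, for an SR protein with a long arginine-serine tail, fell from 251 to 126 FPKM with TCDD (1.99-fold lower, log2 -0.996, q = 0.0101, per the authors' deposited table). It lies on chromosome 11 from 19216622 to 19221876 and overlaps no other gene of the table. At equal totals its log2 difference was -0.75. The next SR gene by q, srsf11, has 133 and 82.3 FPKM (log2 -0.69, q = 0.0901), and SRSF11 (2 of 2) has 60.0 and 43.7 FPKM (q = 0.33), per the authors' deposited table.

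Most other SRSF genes also had the lower value in TCDD without passing the test. The prototype SR protein is encoded by srsf1a, whose copy 2 of 2 stands at 91.6 and 60.8 FPKM (q = 0.253) and whose untested copy 1 of 2 stands at 23.1 and 4.18 FPKM, per the authors' deposited table. The factor also called SC35 is encoded by srsf2a, with 415 and 315 FPKM (q = 0.362), and srsf2b, with 49.5 and 38.0 FPKM (q = 0.548), per the authors' deposited table. The member with the highest level, srsf5a, went the other way with 1393 FPKM in DMSO against 1779 in TCDD (q = 0.571, per the authors' deposited table). So did srsf7a, with 130 against 161 FPKM (q = 0.558, per the authors' deposited table). In all, 10 of 12 SRSF genes (83.3%) had the lower value in TCDD under either scaling, beside 48.6% of all genes above 0 in both groups as deposited and 36.7% at equal totals. With the SRRM genes of the same role it was 10 of 15 (66.7%). The SRSF values summed to 2687 FPKM in DMSO and 2721 FPKM in TCDD, of which srsf5a alone gave 1393 and 1779 FPKM. The near-level sums therefore do not show the direction of most SRSF genes. Of 9 tested SRSF genes 1 was called, or 11.1% beside 18.2% of all tested genes. Of the SR-related splicing co-activators, srrm1 has 104 and 117 FPKM (q = 0.717) and srrm2 has 44.2 and 51.8 FPKM (q = 0.617), per the authors' deposited table.

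No hnRNP gene was called among 10 tested, beside 18.2% of all tested genes, and with 10 genes the count cannot be set apart from that share. Highest in level was hnrnpa1b, whose human relative represses splice sites, and for which the authors' deposited table has 461 FPKM with DMSO and 626 with TCDD (log2 0.44, q = 0.314), at a locus shared with cbx5. The AB-type genes differed in sign as deposited, hnrnpaba with 181 and 255 FPKM (q = 0.286) and hnrnpabb with 230 and 207 FPKM (q = 0.771), per the authors' deposited table; at equal totals both were higher. HNRNPA0 (2 of 5) has 388 and 307 FPKM (q = 0.437), while the authors' deposited table lists the other 4 copies of that symbol at 0 in both groups. The smallest q of the family was that of hnrnpd, also known for AU-rich element decay, with 39.5 and 24.5 FPKM (log2 -0.69, q = 0.228), per the authors' deposited table. HNRNPUL1 follows with 98.99 and 71.4 FPKM (q = 0.305, per the authors' deposited table). As deposited 4 tested hnRNP genes were higher and 6 lower in TCDD, and at equal totals 5 and 5.

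**Figure D5:**
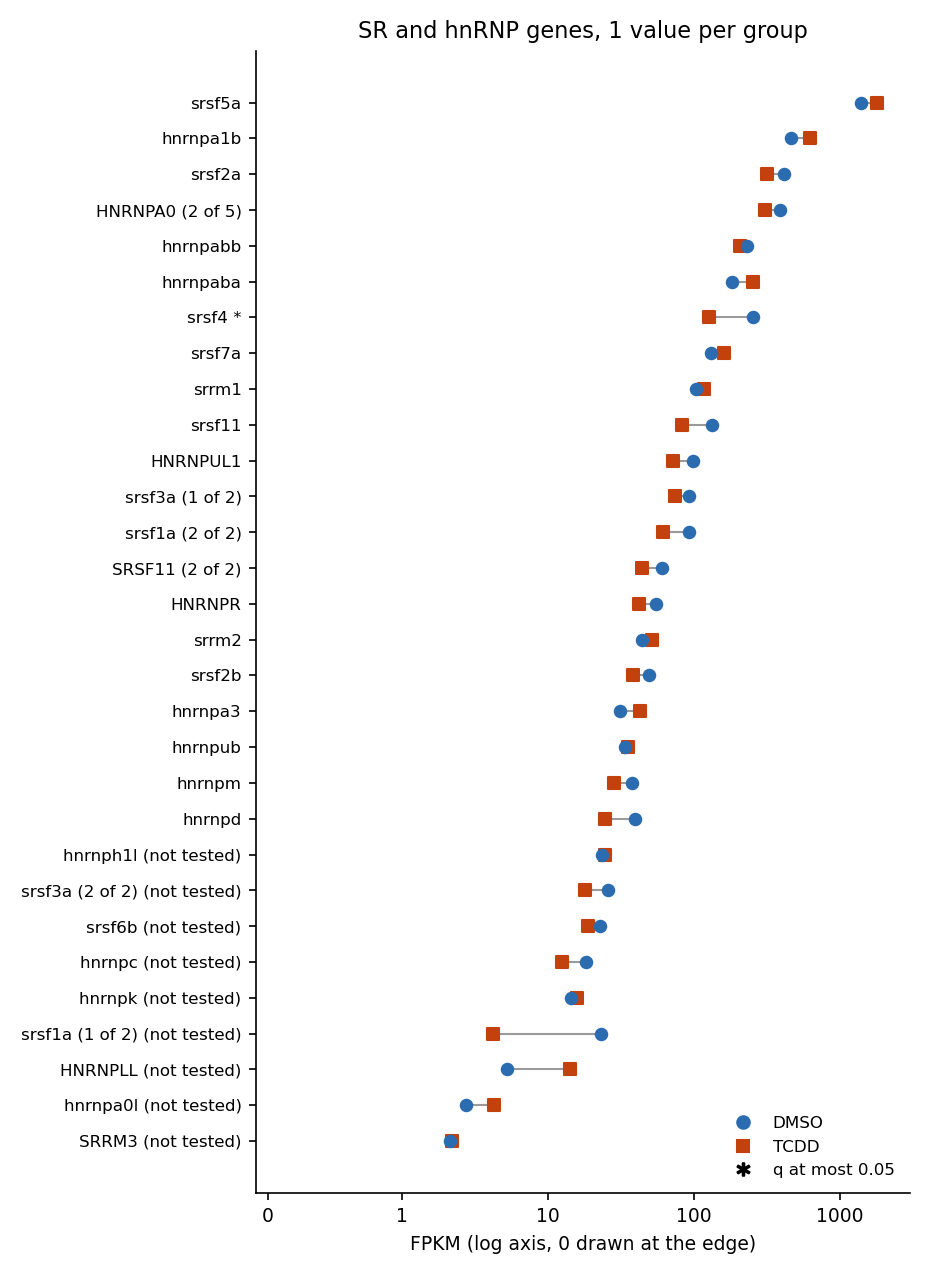
FPKM in DMSO (circles) and TCDD (squares) for the SR and hnRNP genes with a value above 0, on a log axis; a star marks q at most 0.05. The srsf4 pair, at 251 and 126 FPKM, is the called one, and srsf5a is highest at 1393 and 1779 FPKM.

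Among the RBM genes, 1 of 15 tested was called, as higher (6.67%, beside 10.7% called higher among all tested genes). The gene rbm22, for a subunit that contacts the RNA in the activated spliceosome, rose from 26.0 to 59.8 FPKM with TCDD (2.31-fold, log2 1.21, q = 0.0128, per the authors' deposited table). Its locus is on chromosome 10 from 12325335 to 12330095 and overlaps no other gene of the table. At equal totals its log2 difference was 1.45. The largest fold among tested members above 0 in both groups was that of rbm24a, whose zebrafish and mouse relatives promote muscle-specific splicing, with 10.4 and 45.6 FPKM (log2 2.13, q = 0.107, per the authors' deposited table). It did not pass, and the related RBM24 (1 of 2), far more abundant, was level at 291 and 295 FPKM (q = 0.97, per the authors' deposited table).

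Further RBM genes with a part in splicing differed by less than 1.5-fold. RBM8, named like the exon junction complex subunit, stands in the authors' deposited table at 101 FPKM with DMSO and 94.3 with TCDD (q = 0.866). The U2AF-related rbm39b has 104 and 103 FPKM (q = 0.972), and rbm17, which acts on the end of the intron, 64.2 and 62.3 FPKM (q = 0.966), per the authors' deposited table. A regulator of the splicing of apoptosis genes, rbm5 (2 of 2), has 114 and 143 FPKM (q = 0.477), and the alternative splicing regulator rbm4.1 has 38.6 and 26.3 FPKM (q = 0.323), per the authors' deposited table. The 14 tested RBM genes other than rbm22 had a q of 0.107 or more in the authors' deposited table, and their values lay on both sides of equality.

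Of the 33 DDX genes 13 were tested and 0 were called, beside 18.2% of all tested genes. The other 20 DDX genes and all 16 DHX genes were untested. Nearest the threshold came DDX5 (1 of 3), with 43.3 FPKM in DMSO against 77.8 in TCDD (log2 0.85, q = 0.0687, per the authors' deposited table). Its copy DDX5 (2 of 3) was untested with 26.97 and 34.3 FPKM, per the authors' deposited table. The gene named ddx5 without a suffix, for a co-regulator helicase better known as p68, has 131 and 98.96 FPKM (q = 0.341, per the authors' deposited table). Both DDX5 copies lie close together on chromosome 1, so their reads may be split, while ddx5 lies on chromosome 8. How alike the sequences are was not examined, and whether the loci share reads was not tested. With neither known, the difference in sign between the DDX5 copies and ddx5 stays uncertain.

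Other abundant DDX genes did not pass either. The mRNA export helicase gene ddx39aa (2 of 2) stands in the authors' deposited table at 360 FPKM with DMSO and 310 with TCDD (q = 0.628). The translation helicase gene ddx3 has 142 and 181 FPKM (q = 0.433), the nucleolar gene ddx21 has 249 and 282 FPKM (q = 0.69) and the nuclear pore gene ddx19 has 30.3 and 44.3 FPKM (q = 0.259), per the authors' deposited table. Of the spliceosomal helicases, ddx46 has 37.97 and 31.4 FPKM (q = 0.557) and ddx23 has 36.3 and 30.3 FPKM (q = 0.594), per the authors' deposited table. The DHX genes ran from 0.174 to 25.8 FPKM as the mean of both groups. The largest sum of copies among them was that of dhx15, which releases the spliceosome from the spent intron, at 68.7 FPKM in DMSO and 49.2 FPKM in TCDD over 4 loci of the authors' deposited table.

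Just outside the threshold, after DDX5 (1 of 3) and srsf11, the smallest q-values of tested members in the authors' deposited table were those of rbm24a (0.107), snrpd2 (0.113) and snrnp70 (0.126). At the other end, 36 of the 72 tested members (50%) had a q of 0.5 or more, beside 36.6% of all tested genes.

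The 100 untested members cannot be called either way. Their mean over both groups reached 63.3 FPKM, and 38 of them lay at or above 13.7 FPKM, the lowest mean of any tested gene. Of the 90 above 0 in both groups, 36 had the higher and 54 the lower value in TCDD as deposited, and at equal totals 50 were higher and 40 lower. The lower ones were 60% and 44.4%, beside 48.9% and 37.0% of all untested genes above 0 in both groups. At least 20 FPKM in 1 group, and in the other 4 times less or lower still, was found for srsf1a (1 of 2) and RBM38 (2 of 2), and for no other untested member. In both groups 5 members were listed at 0 in the authors' deposited table, 4 HNRNPA0 copies and rbm46, a gene known from germ cells.

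Few splicing genes with other names were called. A list of spliceosome, exon junction, SMN complex, splicing regulator and mRNA decay genes outside the member rule matched 144 genes, of which 51 were tested and 1 was called, or 1.96% beside 18.2% of all tested genes. That gene, the spliceosome-associated cactin, rose from 25.7 to 57.7 FPKM with TCDD (q = 0.0121, per the authors' deposited table). The abundant syf2, a subunit of the Prp19-associated complex, has 440 and 547 FPKM (q = 0.496), and clk4a, a kinase of SR proteins, 475 and 480 FPKM (q = 0.969), per the authors' deposited table. The U2-associated puf60a has 248 and 170 FPKM (q = 0.186), and rbfox1l, a regulator of muscle splicing in zebrafish, 215 and 137 FPKM (q = 0.122), per the authors' deposited table. The median log2 difference of the 51 was -0.12 as deposited and 0.13 at equal totals, beside 0.05 and 0.29 for all tested genes. Of the 51, 80.4% differed by less than 1.5-fold as deposited, beside 52.8% of all tested genes.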

How the data were processed

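RNA of 6 pooled libraries was sequenced on the Ion Torrent PGM. Bowtie2 2.2.6 and DESeq2 appear in the submitters' processing notes without a role; the layout of the table is instead that of Cuffdiff gene tests, so which program made the values stays unknown. No genome build is stated in the sources used. Per the file headers, the authors deposited 1 value per gene and group, read here as FPKM from that layout, a test statistic (a score, not analysed further), p-values and q-values. Depth per library is unknown. Benjamini-Hochberg adjustment of the deposited p-values over all tested genes returned the q-values to within 5.11e-07.

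Members were found by the symbol rule. Log2 differences of TCDD over DMSO were computed from the group values, without a pseudocount, for genes above 0 in both groups; the calls are the authors'. Loci are shown with starts counted from 1: the table's starts count from 0, since 263 of 393 named loci under 600 bp then have a length divisible by 3, against 58 otherwise. Named genes were the called members, all Sm and LSM genes, and in each other role the 4 tested with the highest mean and the 3 with the smallest q, plus untested members with at least 20 FPKM in 1 group and 4 times less, or lower, in the other; of the other splicing genes, the called and the 4 with the highest mean were named. Further genes were chosen after their values were seen. The members, roles and lists were chosen with earlier results of these data known. The Benjamini-Hochberg step was tested on simulated data. Sequences were not used here. Alternatives were other q thresholds, Bonferroni adjustment, equal totals, a pseudocount of 1, a mean of at least 50 FPKM, a narrower member rule and leaving out overlapping loci. Python 3.11.15, pandas 2.3.3, numpy 2.4.6 and matplotlib 3.10.9 were used.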

Additional observations from a re-analysis of the deposited data

Results flagged for a closer look

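RBM38 (2 of 2), a copy of an RNA-binding protein gene known in humans as a p53 target, was singled out because it has a signal in TCDD above the control among genes that the authors did not test. Their deposited table lists 0 for DMSO and 29.3 FPKM for TCDD. Its locus on chromosome 5, from 26039999 to 26040181, spans 183 bp, where few reads can give such a value, and the other gene named rbm38 has 2.26 and 0.879 FPKM in the authors' deposited table.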

How the results depend on the processing

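Members called higher in TCDD numbered 2 and members called lower 1. At q 0.01 these became 1 and 0, and at q 0.1 they became 3 and 2. Shares over all tested genes were not computed at these other thresholds, so the counts there describe the members alone. Bonferroni adjustment over the tested genes left 0 and 0, with 8 members at an unadjusted p under 0.05; the smallest p the authors' test gave, 5e-05, is too large for any gene to pass it. Without the RBM, DDX and DHX families 1 was higher and 1 lower, the rise of rbm22 going with its family. A mean of at least 50 FPKM also left 1 higher, since rbm22 lies below it. Without members listed at 0 in 1 group, a choice made after seeing the data, 1 was higher, because lsm7 is set aside. Leaving out overlapping loci changed neither count. Scaling to equal totals could not change the counts, because the q-values stay as deposited and no called gene could turn sign. The median log2 difference of the tested members was 0.14 at equal totals and -0.24 without the RBM, DDX and DHX families; the cause of the second was not tested. It moved by less than 0.1 under a pseudocount of 1, a mean of at least 50 FPKM, without overlapping loci and with untested members at or above the lowest tested mean. Of the other splicing genes, 1 was called higher at q 0.1 and 0 at q 0.01, and 0 were lower at either, again without shares over all tested genes. No paired analysis was possible because values per library were not analysed here, and for the same reason no library could be left out.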

Other observations

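Helicases of ribosome synthesis form a subset of the DDX genes by what their yeast or human relatives do, a split made after the values were seen. Of these 13 genes (ddx10, ddx18, ddx21, ddx24, ddx27, ddx31, ddx47, ddx49, ddx51, ddx52, ddx54, ddx55 and ddx56), 11 had the lower value in TCDD as deposited (84.6%) but 6 at equal totals (46.2%). The shares over all genes above 0 in both groups were 48.6% and 36.7%. Of the 13 genes 3 were tested with 0 called, beside 18.2% of all tested genes. The largest log2 decreases of the 13 were those of ddx24, with 24.3 and 12.8 FPKM, and ddx49, with 13.0 and 5.34 FPKM, both untested. In the authors' deposited table ddx18 had 43.9 and 43.4 FPKM (q = 0.975). Higher in TCDD were ddx21, with 249 and 282 FPKM (q = 0.69), and the untested ddx54, with 15.2 and 16.2 FPKM, per the authors' deposited table. The other 20 DDX genes had 9 lower and 11 higher values as deposited, and 5 lower and 15 higher at equal totals.

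Untested genes outside the member rule include phf5a, a subunit of SF3b, with 2.77 FPKM in DMSO and 25.6 FPKM in TCDD, and nhp2l1a, which binds U4 RNA, with 35.4 and 7.26 FPKM in the authors' deposited table. Both were chosen after their values were seen, and neither difference has a test.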
